A study of Mus musculus with 19 samples.

Results

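The 9 genes described here encode the liver's machinery for storing and releasing glucose as glycogen: Gys2, Pygl, Phka2, Phkg2, Gbe1, Ppp1r3b, Ppp1r3c, Ugp2 and Gyg. They were found by their symbols among the 13549 genes of the embryo count table and by their mouse Ensembl identifiers among the 17606 identifiers of the tumour files, and all 9 were present in both and passed the filters on low values. They were measured by bulk RNA-seq in 19 libraries from a mouse study of fibrolamellar carcinoma, a liver cancer defined by a fused gene in which DNAJB1, encoding a chaperone, is joined to PRKACA, encoding a catalytic subunit of protein kinase A (PKA). One comparison set livers of embryonic day 18.5 that carried the fusion (n = 4, libraries 6 to 9) against control livers of the same day (n = 5, libraries 1 to 5). The other set tumours of the FL8 line from mice given the CDK4/6 inhibitor palbociclib (n = 5) against tumours from mice given the carrier alone (n = 5).

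The fusion livers, labelled DNAJ1B-PKA_Overexpression, came from a cross of Rosa26 LSL-DNAJB1-PKA-GFP mice with Alb-Cre mice. The Albumin promoter turns the Cre on at mid-gestation, so that recombination starts in cells of the hepatocyte lineage and a GFP reporter is made with the fusion. The labels do not say which of these alleles the control embryos carried. FL8 cells, a single line, were implanted in gelatin capsules beneath the flank skin of NSG mice, which lack T cells, B cells and NK cells. Palbociclib was given at 75 mg/kg by oral gavage for 3 days followed by 4 days without drug. The same schedule and a tumour size of 75 mm3 are given for both tumour groups. Control mice received 0.5% methocel in the protocol, while the series text speaks of PBS. The labels do not state that each tumour came from a separate mouse, so the tumour p-values measure only the spread between these samples.

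Glycogen is built from UDP-glucose on a protein primer and is taken apart by phosphorylase to glucose 1-phosphate. In liver, PKA acts on both sides: it activates phosphorylase kinase, which switches phosphorylase on, and its signalling turns glycogen synthase off, while protein phosphatase 1, held on the glycogen particle by targeting subunits, reverses these phosphorylations. Liver can also split glucose 6-phosphate and export free glucose, which most other tissues cannot. These switches act on the proteins, and the data here are RNA levels only.

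The positions are given in GRCm38 (mm10). Of the genes of synthesis, Ugp2 lies at chr11:21321138-21371201 on the minus strand, Gyg at chr3:20122084-20155317 on the minus strand, Gys2 at chr6:142422613-142473109 on the minus strand and Gbe1 at chr16:70313949-70569716 on the plus strand. Of the phosphatase targeting subunits, Ppp1r3b lies at chr8:35375739-35388139 on the plus strand and Ppp1r3c at chr19:36731731-36736653 on the minus strand. Of the genes of breakdown, Pygl lies at chr12:70190811-70231488 on the minus strand, Phka2 at chrX:160502166-160598878 on the plus strand and Phkg2 at chr7:127573340-127583307 on the plus strand. Exons of Phkg2 share 876 bases with Ccdc189 on the opposite strand, and whether the counting used strand is not given in the sources used here, so reads of these 2 genes cannot be told apart there. The same holds for 115 bases of Phka2 with Gm15243 and 78 bases of Ugp2 with Gm12043.

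PKA also acts on transcription, through CREB, which binds the cAMP response element. Promoter sequences from RefSeq (GRCm38.p6) were matched by symbol for 7 of the 9 members, in 8 entries. Gys2 and Ppp1r3b had no entry. The 250 bases before each start were searched on both strands for the element's core TGACG and for the palindrome TGACGTCA, which holds the core. The core was found in 1 of the 8 entries, that of Pygl, 44 bases before the start, against 17.8% of 32851 promoters of the same length. The palindrome was found in 0 of the 8 entries, against 1.55% of all promoters. In 25 entries for 23 other genes of the pathway the core was found in 12 entries of 11 genes and the palindrome in 0. The genes with the core included Slc37a4 and Pygb, both lower in fusion livers. The first core of Slc37a4 lay 61 or 214 bases before the start, depending on the entry. Those positions lie past the first base that GENCODE counts as exon, and another Slc37a4 entry held no core. Calm3, Gaa, Gsk3a, Nhlrc1, Phkb, Ppp1r3d, Ppp1r3f and Ppp1r3g also held the core and did not pass the test over all livers described below. Ppp1r3a, which held the core too, was not in the embryo count table. G6pc, higher in fusion livers, and Stbd1, lower in them, did not hold the core. For G6pc, 155 of the 250 bases lie past the first base that GENCODE counts as exon. Variant forms of the element were not searched for, so a gene without a match may still hold one. Ppp1r3g, a targeting subunit, holds the core 40 bases before RefSeq's start, in a stretch that GENCODE counts as the first exon. The sequences of Ppp1r3c, lower in fusion than in control livers within each library set described next, and of Pygl, the only member with the core, are shown 5′ to 3′ with the core in capitals, on whichever strand it lies. The window of Ppp1r3c is shown without its last 49 bases, which GENCODE counts as exon. The window of Pygl lies inside the gene as GENCODE places it, so the RefSeq start used here lies downstream of the GENCODE start. A match describes letters in this window and says nothing about binding.

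Ppp1r3c, chr19:36736654-36736854, minus strand: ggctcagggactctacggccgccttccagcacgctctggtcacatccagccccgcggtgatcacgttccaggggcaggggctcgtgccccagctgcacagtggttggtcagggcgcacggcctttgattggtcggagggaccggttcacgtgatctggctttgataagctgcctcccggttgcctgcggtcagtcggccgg

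Pygl, chr12:70227684-70227933, minus strand: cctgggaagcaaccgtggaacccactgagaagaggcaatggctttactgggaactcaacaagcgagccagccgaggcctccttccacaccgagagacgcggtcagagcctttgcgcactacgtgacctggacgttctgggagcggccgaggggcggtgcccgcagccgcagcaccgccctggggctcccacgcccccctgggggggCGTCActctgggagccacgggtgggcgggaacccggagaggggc

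Total counts were 7660736 to 23144891 in the control livers and 13527381 to 45591301 in the fusion livers, and reads were 2955729 to 33863983 in the vehicle tumours and 24857723 to 43141761 in the palbociclib tumours. Within groups no pair of libraries agreed within counting noise (lowest chi-square per degree of freedom 12.5). The embryo libraries fell into 2 sets by the share of counts in 81 ribosomal protein genes, which was 9.68% to 10.1% in a higher set (controls 1 and 2 with fusion livers 8 and 9). In the lower set, made of the remaining 5 livers, it was 6.16% to 7.85%. By Xist and Ddx3y, control 1, control 2 and fusion 6, 7 and 8 were female and the other 4 male, so sex and genotype coincide in the set with the lower share. Summed hepatocyte markers (6 of 6 listed: Alb, Apoa1, Ttr, Afp, Hnf4a, Trf) were 142669 to 182634 CPM (the count scaled to library size) in control and 157452 to 202194 in fusion livers. Summed haematopoietic markers (4 of 6 listed) were 1367 to 2016 CPM in control and 1427 to 1770 CPM in fusion livers. In the tumours, mitochondrial genes took 46.6% of the reads of vehicle 1 and 1.24% to 6.47% in each remaining tumour, and vehicle 5 had the lowest depth, 2955729 reads.

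Prkaca was measured first as a check of the labels. It stood at 43.4, 50.5, 38.0, 36.3 and 45.3 CPM in controls 1 to 5 and at 114, 72.4, 53.8 and 52.0 CPM in fusion 6 to 9. Every fusion liver lay above every control, fusion 8 and fusion 9 only narrowly. The log2 fold change was 0.78 ± 0.22 (SE; adjusted p = 0.0379, edgeR's quasi-likelihood test with Benjamini-Hochberg adjustment over all genes, as for every embryo value that follows). The call was lost in 8 of 17 other settings, with log2 fold changes of 0.49 without fusion 6 and 0.19 within the set of higher ribosomal share.

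In the fusion livers the phosphatase targeting subunit Ppp1r3b fell by 43.4% in mean CPM, and it was the only member that passed an adjusted p of 0.05. The enzymes that build and cut the polymer, Ugp2, Gyg, Gys2, Gbe1 and Pygl, did not pass. That is 1 of 9 members, or 11.1%, where 12.8% of the 13316 genes tested passed, so the share was near the background. The median log2 fold change of the members was -0.25, beside -0.01 over all genes tested, with 3 members positive and 6 negative. Of the other genes of the pathway, the glucose 6-phosphatase gene G6pc rose 5.13-fold in mean CPM, and the transporter gene Slc37a4 fell. In such bulk samples fewer cells of a type and less RNA per cell cannot be told apart.

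**Figure D1:**
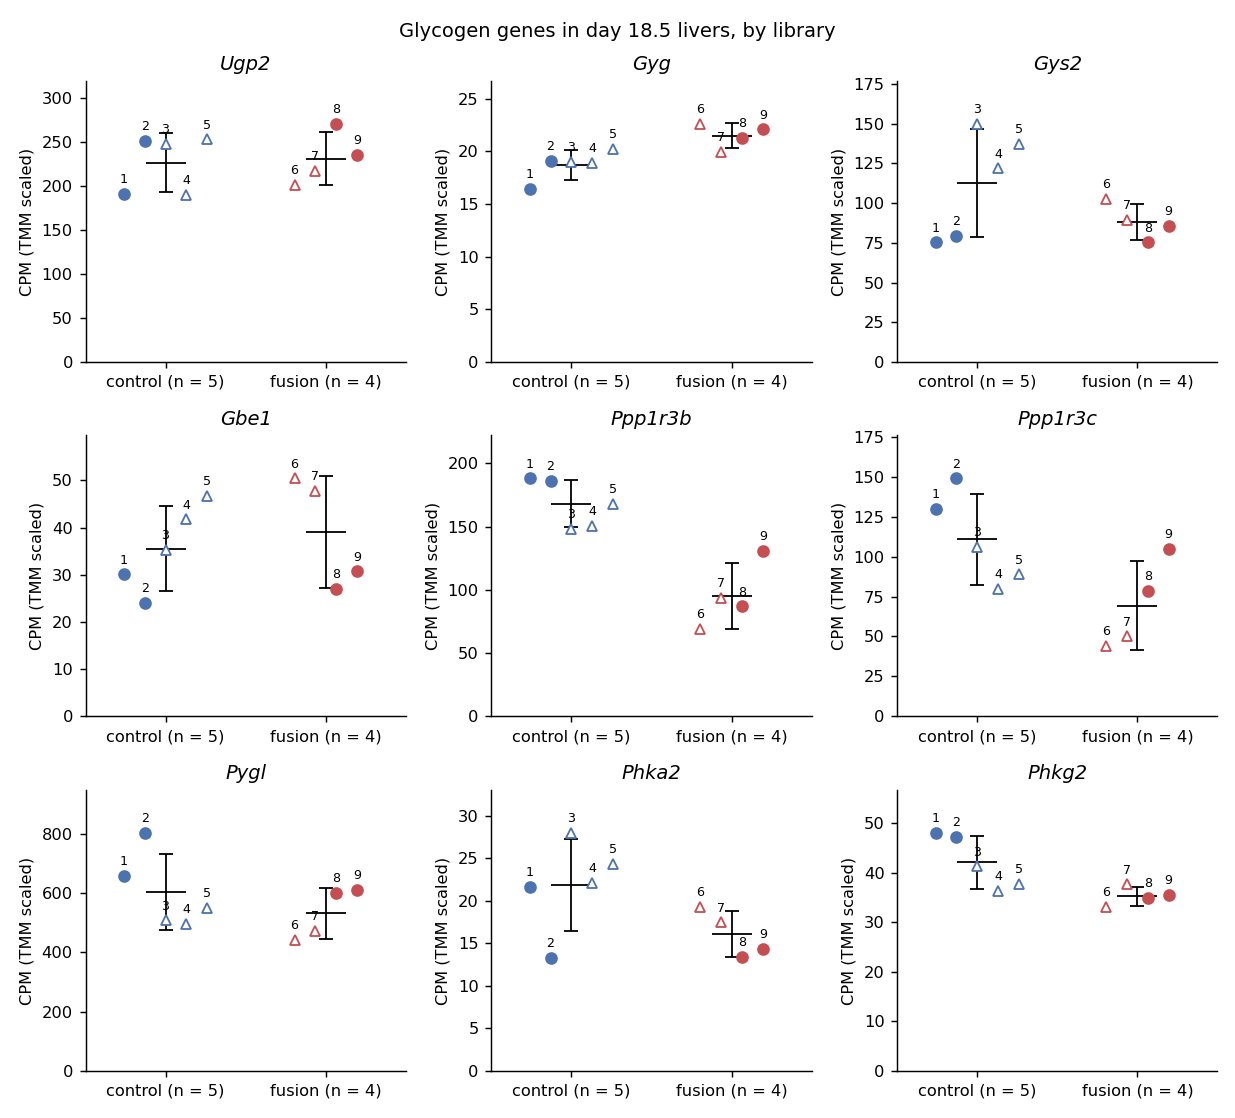
Level of each of the 9 glycogen genes in CPM (scaled by TMM, linear axis from 0) in 5 control (blue) and 4 fusion (red) livers; numbers are library labels, filled circles are libraries with the higher ribosomal share, open triangles those with the lower share, and bars are the mean ± SD. Ppp1r3b separates the groups, at 148 to 188 CPM in controls and 69.1 to 131 CPM in fusion livers, and for Gys2, Gbe1, Pygl, Ppp1r3b, Ppp1r3c, Phka2 and Phkg2 the circles and triangles of the controls do not overlap. Among controls this split is also that of sex, and the share of all genes split in this way was not counted.

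Ppp1r3b encodes the liver targeting subunit known as GL, which brings protein phosphatase 1 to glycogen and promotes synthase activity. Its level was 188, 186, 148, 151 and 168 CPM in controls 1 to 5 and 69.1, 93.9, 86.9 and 131 CPM in fusion 6 to 9. All 4 fusion livers lay below all 5 controls, with fusion 6 lowest and fusion 9 nearest to the controls. The log2 fold change was -0.82 ± 0.18 (SE; 95% interval -1.21 to -0.43; adjusted p = 0.0132, edgeR). Among all genes tested 16.5% had groups that did not overlap, and among the members Ppp1r3b was the 1 of 9. Ppp1r3b passed under each of the 17 other settings run, at log2 fold changes between -1.01 and -0.69.

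Ppp1r3c encodes PTG, a second targeting subunit of the same phosphatase. Its level was 130, 149, 106, 79.9 and 88.8 CPM in controls 1 to 5 and 44.0, 50.1, 78.6 and 105 CPM in fusion 6 to 9. Fusion 9 stood among the controls and the groups overlapped; the log2 fold change was -0.67 ± 0.27 (SE; adjusted p = 0.120, edgeR). Within the set of higher ribosomal share, the 2 controls were at 130 and 149 CPM and the 2 fusion livers at 78.6 and 105 CPM. Within the set of lower share, the 3 controls were at 79.9 to 106 CPM and the 2 fusion livers at 44.0 and 50.1 CPM. So within each set the fusion livers lay below the controls. The log2 fold change was -0.59 (adjusted p = 0.0333, edgeR) within the higher set and -0.97 (adjusted p = 0.00166, edgeR) within the lower set. In the lower set every control is male and both fusion livers are female, so genotype and sex cannot be told apart there.

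Of the genes of synthesis, Ugp2 encodes the enzyme that makes UDP-glucose, the glucose donor. It stood at 191, 251, 248, 189 and 253 CPM in controls 1 to 5 and at 201, 217, 270 and 235 CPM in fusion 6 to 9, with a log2 fold change of 0.03 ± 0.15 (SE; 95% interval -0.29 to 0.35; adjusted p = 0.927, edgeR). The groups overlapped almost entirely. Gyg encodes glycogenin, the protein primer on which each particle starts. Its level was 16.4, 19.1, 19, 18.9 and 20.2 CPM in controls and 22.6, 19.9, 21.3 and 22.1 CPM in fusion livers, a log2 fold change of 0.20 ± 0.10 (SE; adjusted p = 0.230, edgeR). Only fusion 7 lay within the control range. Gbe1 encodes the branching enzyme. It was at 30.1, 24.0, 35.3, 41.7 and 46.7 CPM in controls and at 50.4, 47.8, 27.0 and 30.7 CPM in fusion livers, with a log2 fold change of 0.13 ± 0.23 (SE; adjusted p = 0.746, edgeR). All 4 libraries of the higher ribosomal set, of either genotype, lay below all 5 of the lower set.

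Gys2 encodes liver glycogen synthase, the enzyme that lengthens the chains. It stood at 75.2, 79.2, 150, 122 and 137 CPM in controls 1 to 5 and at 103, 89.3, 75.3 and 85.5 CPM in fusion 6 to 9. The controls themselves fell into 2 levels, which are those of the ribosomal sets and, among controls, also of sex (controls 1 and 2 female, 3 to 5 male), and the fusion livers lay between or beside them. Over all libraries the log2 fold change was -0.35 ± 0.21 (SE; adjusted p = 0.292, edgeR), and with sex as a covariate it was -0.12 (adjusted p = 0.732, edgeR). Within the higher set the genotypes did not differ detectably (0.07, adjusted p = 0.753, edgeR), and within the lower set Gys2 was lower in both fusion livers (-0.50, adjusted p = 0.0220, edgeR), where every control is male and both fusion livers are female. The difference between these 2 effects was -0.56 ± 0.19 on the log2 scale (SE; adjusted p = 0.174, edgeR interaction term, chosen after seeing the data), in a test that 0.188% of all genes passed. Over the 9 livers, the genes whose centred log2 CPM lay nearest to that of Gys2 among 8300 compared were Serping1, Clpx and Prkd3, at root mean square differences of 0.10, 0.10 and 0.12.

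Of the genes of breakdown, Pygl encodes liver glycogen phosphorylase. By the mean, it was the most abundant member per kilobase of merged exon in the control livers, at 87.5 ± 18.7 CPM per kb (SD, n = 5), followed by Ugp2 at 73.8 ± 10.8 and Gys2 at 42.4 ± 12.7 CPM per kb. The ranges of Pygl and Ugp2 overlapped, and by the median Ugp2 stood first, at 80.8 CPM per kb against 79.9 for Pygl. Pygl stood at 659, 803, 508, 497 and 551 CPM in controls 1 to 5 and at 442, 473, 602 and 609 CPM in fusion 6 to 9, with a log2 fold change of -0.18 ± 0.18 (SE; adjusted p = 0.542, edgeR). The groups overlapped, and controls 1 and 2 and fusion 8 and 9 stood highest in either genotype. The genes nearest to its pattern were Mtss1, St6galnac4 and Map3k11, at root mean square differences of 0.047, 0.048 and 0.058 (log2) over the same 9 livers.

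Phka2 and Phkg2 encode subunits of phosphorylase kinase, the liver form of the regulatory alpha subunit and the catalytic gamma subunit. Phka2 was at 21.6, 13.2, 28.0, 22.1 and 24.3 CPM in controls and at 19.2, 17.4, 13.4 and 14.3 CPM in fusion livers. Control 2 lay below every fusion liver and the other 4 controls above, and the log2 fold change was -0.45 ± 0.19 (SE; adjusted p = 0.154, edgeR). Without control 2 it was -0.56 (adjusted p = 0.0392, edgeR). Phkg2 was at 48.0, 47.3, 41.2, 36.3 and 37.7 CPM in controls and at 33.0, 37.6, 34.9 and 35.5 CPM in fusion livers, a log2 fold change of -0.25 ± 0.12 (SE; adjusted p = 0.169, edgeR). Fusion 7 alone reached the control range.

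With the ribosomal set as a covariate, 4 of the 9 members passed, or 44.4%, where 32.6% of all genes passed. All 4 were lower: Ppp1r3b (log2 fold change -0.87, adjusted p = 0.000402, edgeR), Ppp1r3c (-0.80, adjusted p = 0.000566, edgeR), Phka2 (-0.40, adjusted p = 0.0323, edgeR) and Phkg2 (-0.26, adjusted p = 0.0469, edgeR). None of the 5 enzymes Ugp2, Gyg, Gys2, Gbe1 and Pygl was among them. For Pygl the value with this covariate was -0.22 with an adjusted p of 0.101 (edgeR). The members that passed were not the same within the single sets. Gys2 passed within the lower set, where Phkg2 did not, and Phka2 did not pass within the higher set. With sex as a covariate only Ppp1r3b passed (-0.80, adjusted p = 0.0260, edgeR). What sets the 2 ribosomal sets apart was not tested.

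**Figure D2:**
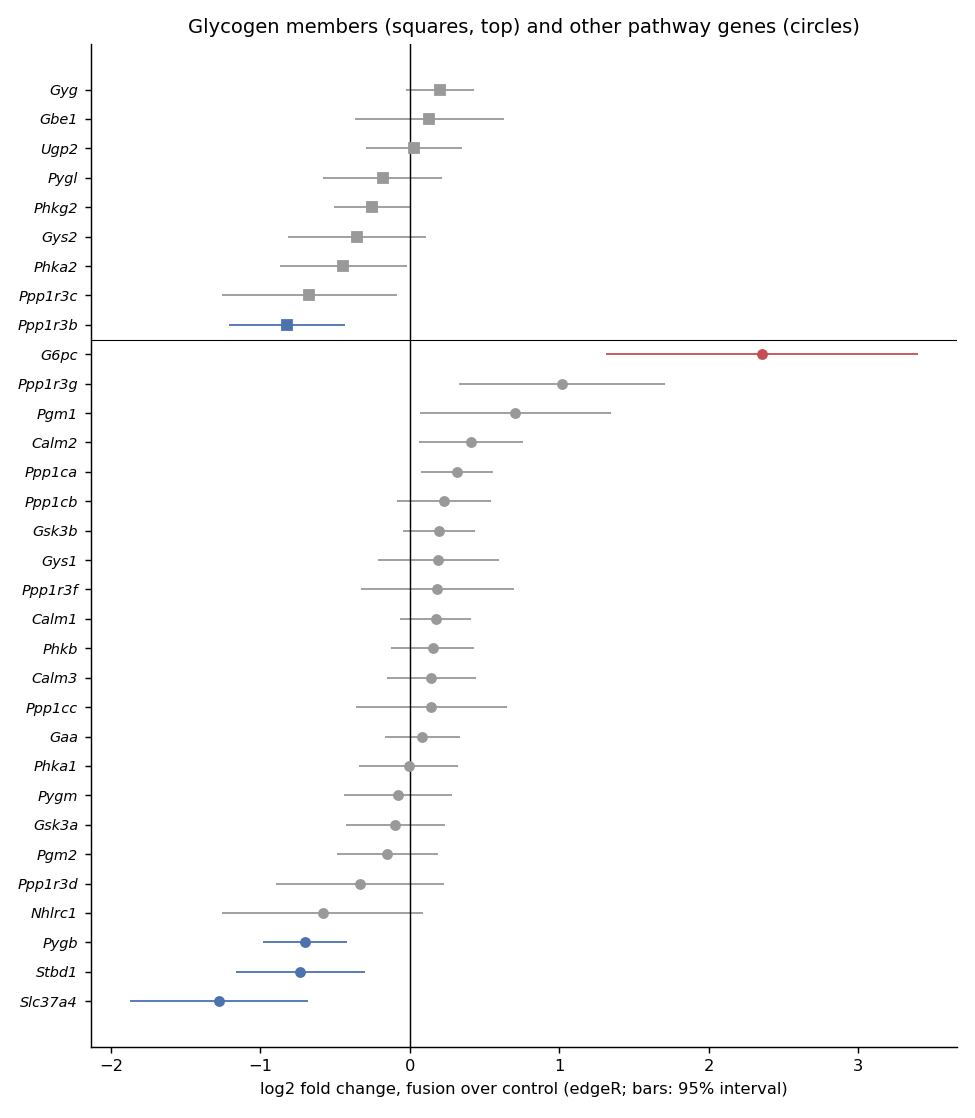
Log2 fold change of fusion over control livers for the 9 members (squares, above the line) and 23 other genes of the pathway (circles), with 95% intervals from the edgeR fit; blue passed an adjusted p of 0.05 downwards, red upwards, grey did not pass. Ppp1r3b at -0.82 is the only coloured member, and G6pc at 2.36 and Slc37a4 at -1.28 are the ends of the pathway list.

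The other glycogen pathway genes were a list of 27, of which 23 were in the embryo table. Of these, 1 passed upwards and 3 downwards, 17.4% in all, beside the 12.8% of all genes, and the median log2 fold change was 0.14. G6pc, the catalytic subunit that splits glucose 6-phosphate in the endoplasmic reticulum, was at 23.1 to 66.6 CPM in controls and at 459, 223, 136 and 70.3 CPM in fusion 6 to 9. All fusion livers lay above all controls, fusion 9 just above, and the log2 fold change was 2.36 ± 0.48 (SE; adjusted p = 0.00941, edgeR). Slc37a4, the transporter that carries glucose 6-phosphate to that enzyme, was at 259 to 478 CPM in controls and at 90.1, 136, 149 and 242 CPM in fusion 6 to 9. It fell in the same livers in which G6pc rose, by 1.28 on the log2 scale (SE 0.27; adjusted p = 0.0120, edgeR).

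Pygb and Stbd1, which act on the polymer itself, also fell. Pygb, the brain form of phosphorylase, was at 57.2 to 64.4 CPM in controls and at 28.4 to 44.2 CPM in fusion livers (log2 fold change -0.70 ± 0.13, SE; adjusted p = 0.00574, edgeR), with no overlap. Stbd1, which tethers glycogen to membranes, was at 123 to 195 CPM in controls and at 69.3 to 125 CPM in fusion livers (-0.73 ± 0.20, SE; adjusted p = 0.0323, edgeR), where fusion 9 overlapped the lowest control. Stbd1 lost the call in 8 of 17 other settings, which gave log2 fold changes of -0.79 to -0.59 and adjusted p of 0.0507 to 0.0954 (edgeR). G6pc lost it with sex as a covariate, at a log2 fold change of 2.33 (adjusted p = 0.0538, edgeR).

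Among the other targeting subunits, Ppp1r3g, known in liver for its rise in the fasted state, was at 18.8, 22.3, 11.6, 8.63 and 12.2 CPM in controls 1 to 5 and at 43.7, 24.9, 32.6 and 15.5 CPM in fusion 6 to 9. Fusion 9 stood within the control range and the other 3 above it, and the log2 fold change was 1.02 ± 0.32 (SE; adjusted p = 0.0554, edgeR). It is named here after its values were seen, since it did not pass. It passed upwards with the ribosomal set as a covariate (1.07, adjusted p = 0.0117, edgeR). Within the higher set, where fusion 9 lay below both controls, it was 0.24 (adjusted p = 0.568, edgeR). Within the lower set, where sex and genotype coincide, it was 1.68 (adjusted p = 0.00101, edgeR). These effects differed by 1.45 ± 0.42 (SE; adjusted p = 0.131, edgeR interaction term). Ppp1r3d and Ppp1r3f, also named after their values were seen, did not pass, at log2 fold changes of -0.33 and 0.18.

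**Figure D3:**
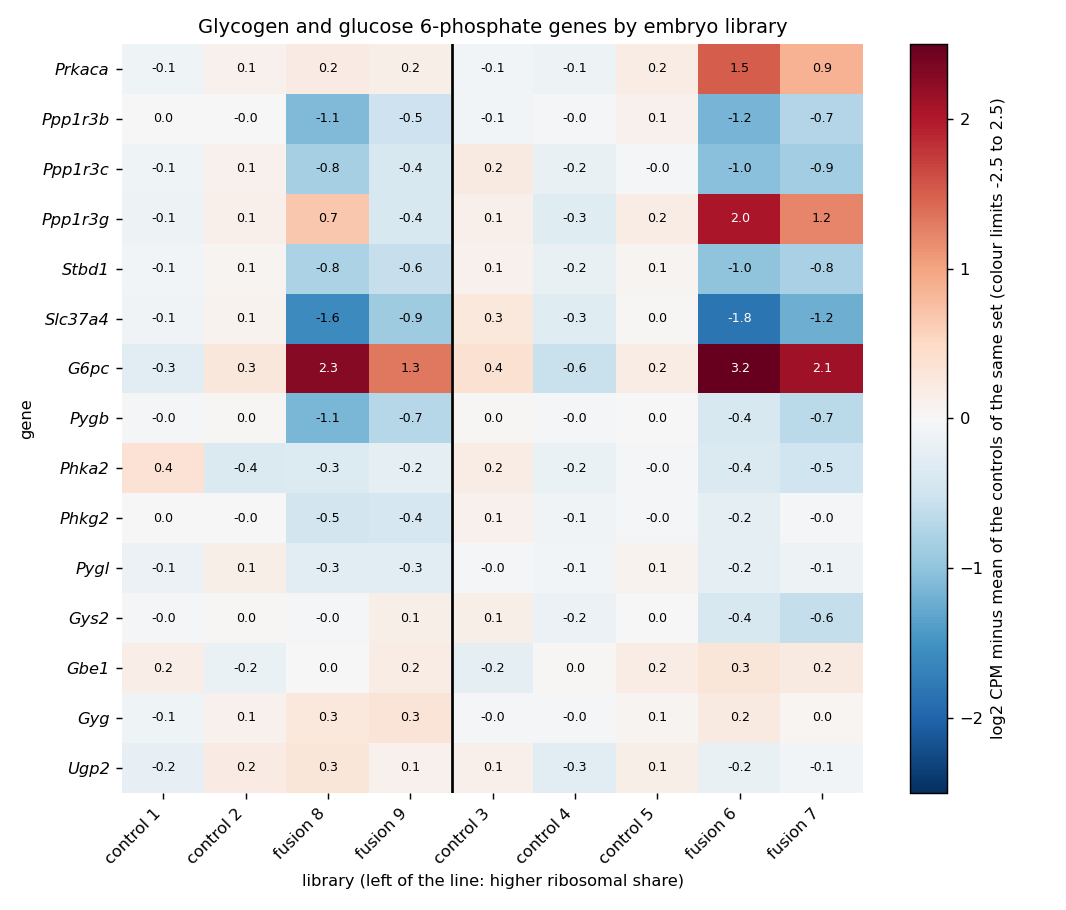
Log2 CPM of Prkaca, the 9 members and 5 other pathway genes in each embryo library, minus the mean of the controls of the same ribosomal set (columns left of the line: higher share; red above, blue below those controls). All 4 fusion columns are below 0 for Ppp1r3b, Ppp1r3c, Stbd1, Slc37a4, Pygb, Phka2, Phkg2 and Pygl and above 0 for Prkaca, G6pc, Gyg and Gbe1. Some of these values lie within those of the same controls: Gbe1 in fusion 8 (0.01), Phkg2 (-0.03) and Gyg (0.04) in fusion 7, and Phka2 in fusion 8 and 9. How many of all genes share a sign in this way was not counted. Fusion 6, with the most Prkaca, holds the most extreme value in Ppp1r3b, Ppp1r3c, Ppp1r3g, Stbd1, Slc37a4 and G6pc, and for Pygb, at -0.40, the least extreme of the 4.

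The heatmap of values by library shows how the 4 fusion livers differed among themselves. Fusion 6, the liver with the most Prkaca, had the lowest Ppp1r3b, Ppp1r3c, Slc37a4 and Stbd1 and the highest G6pc and Ppp1r3g of the 4. This order did not hold for every gene. Relative to the mean of all controls, fusion 6 lay nearest of the 4 and fusion 8 farthest for Pygb, Gys2 and Phka2. Relative to the controls of the same set, as the heatmap shows, that held for Pygb but not for Gys2 or Phka2. On that scale Gys2 was -0.40 in fusion 6 and -0.04 in fusion 8, and Phka2 was -0.36 and -0.33. Fusion 9, the liver with the least Prkaca and the only male of the 4, lay nearest to the control mean for Ppp1r3b, Ppp1r3c, Slc37a4, Stbd1, G6pc and Ppp1r3g. With 4 livers this is a description. Relative to the controls of its own set, Ppp1r3b was lower by 1.17, 0.73, 1.11 and 0.52 on the log2 scale in fusion 6, 7, 8 and 9. Fusion 8 thus had a Ppp1r3b deficit near that of fusion 6, while its Prkaca was only 0.20 above its controls, against 1.52 in fusion 6.

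In the tumours no member passed an adjusted p of 0.05 between palbociclib and vehicle (limma on log2(CPM + 1), 12829 genes tested). Neither did any other gene, so the background is 0%. At an unadjusted p of 0.05, 586 genes passed, 4.57% of those tested, and 1 of the 9 members was among them, Pygl. That count of members was 0 with TMM factors (limma), where 683 of 12873 genes passed. It was also 0 on the recovered reads with edgeR (773 of 14367 genes) and with DESeq2 (1014 of 17107 genes). No member had groups that did not overlap, against 0.935% of all genes. The median log2 fold change was 0.19 over the members and 0.14 over all genes, 6 members being positive. With TMM scaling the median of all genes moved to 0.01 and that of the members to 0.05, with 5 positive and 4 negative, so directions close to 0 depend on the scaling. The tumour fold changes understate changes of low genes, since 1 was added to each CPM.

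**Figure D4:**
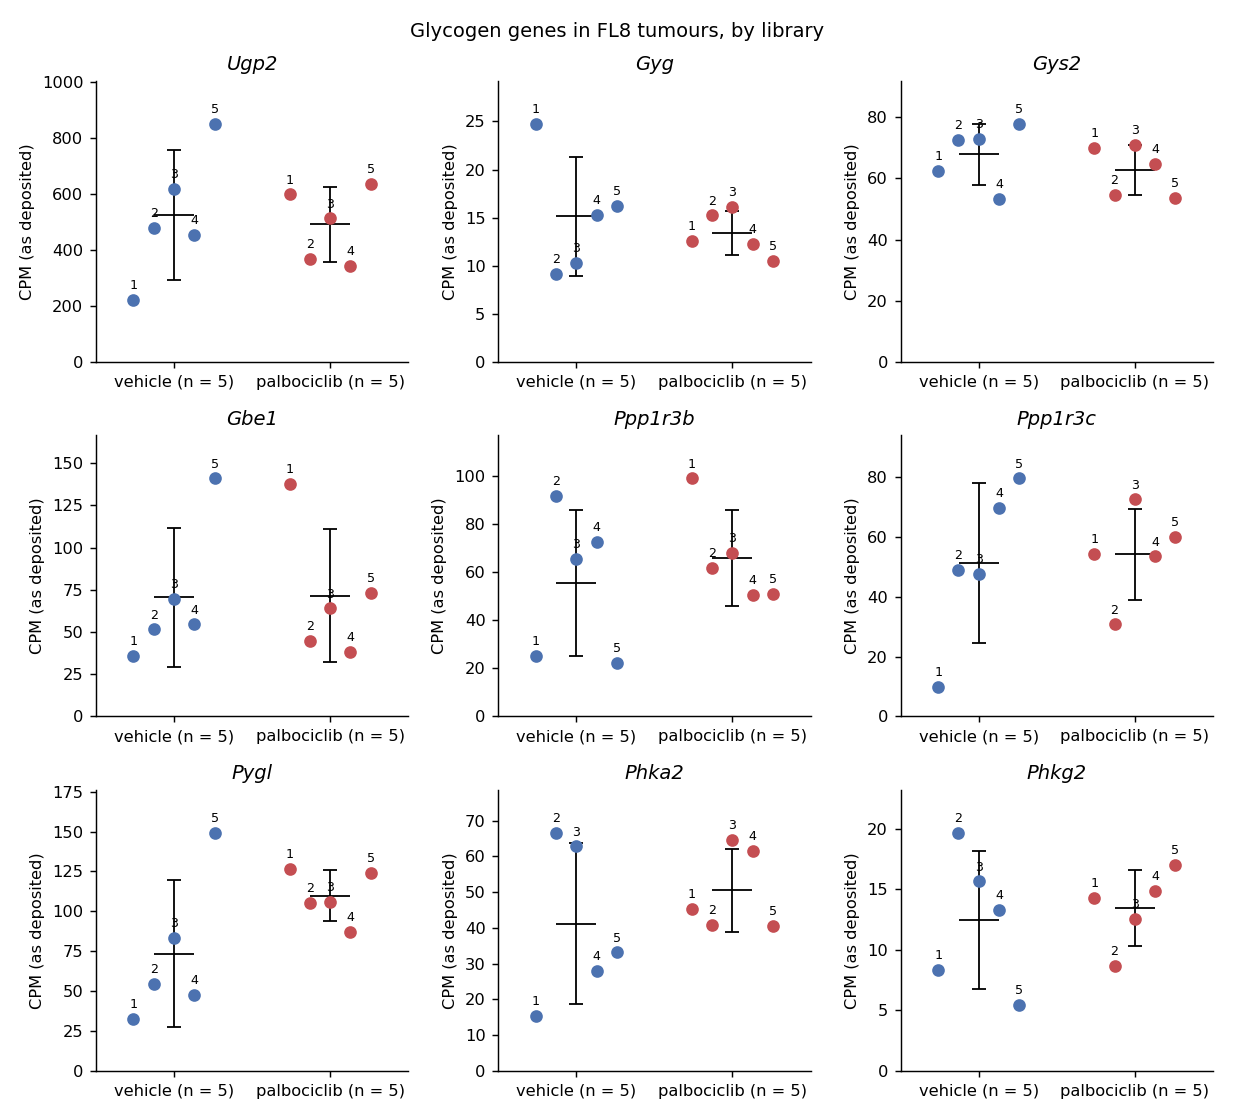
Level of each of the 9 glycogen genes in CPM (as deposited, linear axis from 0) in 5 vehicle (blue) and 5 palbociclib (red) tumours; numbers are library labels and bars are the mean ± SD. The groups overlap in all 9 panels, and in the Pygl panel vehicle 5, at 149 CPM, stands above the palbociclib tumours while the other 4 vehicle tumours stand below them.

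Pygl was at 32.8, 54.3, 83.4, 47.4 and 149 CPM in vehicle 1 to 5 and at 127, 106, 106, 87.3 and 124 CPM in palbociclib 1 to 5. Vehicle 1 to 4 lay below every palbociclib tumour, and vehicle 5, the shallowest library, lay above them all. The log2 fold change was 0.76 ± 0.33 (SE; adjusted p = 0.953, limma). Without vehicle 5 it was 1.06 ± 0.27 (SE; adjusted p = 0.383, limma), and without vehicle 1, the library with many mitochondrial reads, it was 0.53 (adjusted p = 0.994, limma). With TMM scaling Pygl in vehicle 1 was at 52.2 CPM, and DESeq2 on the recovered reads gave a log2 fold change of 0.44.

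The kinase subunits that act on phosphorylase were spread in the vehicle group. Phka2 was at 15.5, 66.6, 62.8, 27.9 and 33.2 CPM in vehicle tumours and at 45.4, 40.7, 64.6, 61.6 and 40.6 CPM in palbociclib tumours (log2 fold change 0.45 ± 0.34, SE; adjusted p = 0.953, limma). Phkg2 was at 8.36, 19.6, 15.6, 13.3 and 5.41 CPM in vehicle tumours and at 14.3, 8.64, 12.5, 14.9 and 17.0 CPM in palbociclib tumours (0.19 ± 0.33, SE; adjusted p = 0.961, limma). The palbociclib values lay inside the vehicle range for both genes. The value of Phkg2 in vehicle 5 rests on 16 reads, the fewest of any member in any library.

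For the synthase gene Gys2 the deposited values had a narrow range. It stood at 62.3, 72.7, 72.98, 53.3 and 77.8 CPM in vehicle tumours and at 70.0, 54.6, 70.9, 64.7 and 53.5 CPM in palbociclib tumours, a log2 fold change of -0.11 ± 0.22 (SE; 95% interval -0.56 to 0.35; adjusted p = 0.966, limma). Every palbociclib tumour lay inside the vehicle range. With TMM scaling the range over the 10 tumours was wider, 48.4 to 99.0 CPM, with vehicle 1 highest. Ugp2 was at 221, 481, 618, 453 and 851 CPM in vehicle tumours and at 599, 368, 514, 343 and 638 CPM in palbociclib tumours (-0.01 ± 0.33, SE; adjusted p = 0.998, limma). Gyg was at 24.7, 9.16, 10.3, 15.3 and 16.2 CPM in vehicle tumours and at 12.6, 15.2, 16.1, 12.3 and 10.5 CPM in palbociclib tumours (-0.10 ± 0.29, SE; adjusted p = 0.975, limma). Vehicle 1 held the highest Gyg of the 10 tumours and the lowest Ugp2, though with TMM scaling the lowest Ugp2 was that of palbociclib 4. Gbe1 was at 35.9, 51.5, 69.8, 54.5 and 141 CPM in vehicle tumours and at 138, 44.6, 64.0, 38.4 and 73.4 CPM in palbociclib tumours (0.03 ± 0.37, SE; adjusted p = 0.992, limma), with 1 high tumour in each group.

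The targeting subunits Ppp1r3b and Ppp1r3c differed between tumour groups by less than the spread within them. Ppp1r3b was at 25.3, 91.6, 65.6, 72.3 and 22.3 CPM in vehicle tumours and at 98.9, 61.8, 67.9, 50.4 and 50.7 CPM in palbociclib tumours (log2 fold change 0.41 ± 0.36, SE; adjusted p = 0.953, limma). Ppp1r3c was at 9.98, 49.0, 47.7, 69.6 and 79.5 CPM in vehicle tumours and at 54.2, 30.7, 72.5, 53.5 and 60.0 CPM in palbociclib tumours (0.30 ± 0.43, SE; adjusted p = 0.960, limma). Vehicle 1 and vehicle 5 held the lowest Ppp1r3b, and vehicle 1 the lowest Ppp1r3c. Without vehicle 1 the log2 fold change of Ppp1r3c was -0.20.

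Of the 27 other pathway genes, 24 were in the tumour files, 21 passed the filter and 0 passed an adjusted p of 0.05 (limma). At an unadjusted p of 0.05 the count was also 0, as was the adjusted count with edgeR and with DESeq2 on the recovered reads. The 3 with the smallest p were Calm3, a calmodulin gene, at 110 ± 21.6 CPM in vehicle and 153 ± 29.8 CPM in palbociclib tumours (SD, n = 5 each), G6pc, at 44.4 ± 29.5 and 78.9 ± 46.2 CPM, and Gsk3a, a kinase gene whose product phosphorylates glycogen synthase, at 31.1 ± 14.7 and 39.5 ± 6.73 CPM. Their log2 fold changes were 0.47 ± 0.23, 1.02 ± 0.57 and 0.46 ± 0.32 (SE; adjusted p = 0.953 each, limma), and their groups overlapped. The G6pc value fell to 0.46 without vehicle 1. Summed hepatocyte markers, 6 of 6 listed, were 31803 to 90401 CPM in vehicle and 63666 to 98771 CPM in palbociclib tumours, and their part in these values was not tested. Summed haematopoietic markers, 6 of 6 listed, were 1028 to 49015 CPM in vehicle and 1059 to 5502 CPM in palbociclib tumours, and their part was not tested either.

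The order of the members per kilobase was not the same in livers and tumours, which were processed by different pipelines and were not tested against each other. In vehicle tumours Ugp2 stood first at 171 ± 75.5 CPM per kb (SD, n = 5), followed by Gys2 at 25.5 ± 3.72, Ppp1r3c at 18.8 ± 9.80, Gbe1 at 13.2 ± 7.70 and Pygl at 10.7 ± 6.70 CPM per kb. Only the step from Ugp2 to Gys2 exceeded the spread, and the ranges from Ppp1r3c down to Pygl overlapped. A comparison within each library, log2 CPM of Gys2 minus that of Pygl, gave -3.34 to -1.76 in control livers (mean -2.45 ± 0.73, SD, n = 5) and -3.00 to -2.11 in fusion livers (-2.59 ± 0.41, SD, n = 4). In vehicle tumours it was -0.94 to 0.92 (0.08 ± 0.70, SD, n = 5) and in palbociclib tumours -1.21 to -0.43 (-0.81 ± 0.31, SD, n = 5). These differences are not corrected for gene length, and Pygl has the longer exons. Per kilobase of merged exon the difference was -1.97 to -0.38 in control livers, -1.62 to -0.73 in fusion livers, 0.44 to 2.30 in vehicle tumours and 0.16 to 0.94 in palbociclib tumours. On that scale Pygl stood above Gys2 in each of the 9 livers and Gys2 above Pygl in each of the 10 tumours. The order in the tumours depends on the length used. Without it Pygl stood above Gys2 in every palbociclib tumour, and the vehicle tumours were split. The merged length counts exons of every annotated transcript, and which transcripts were present was not examined.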

How the data were processed

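RNA was measured in 9 embryonic livers and 10 tumours. For the livers, the authors deposited raw counts per gene; STAR 2.5.1b, DESeq2 and mm10 are named in the submitters' processing notes. A further 9 columns of per-sample values were not used, since they rescale the same counts. For the tumours, the authors deposited CPM per Ensembl gene; cutadapt 2.10, HISAT2, featureCounts, DESeq2, R 4.1.2 and mm10 are named in those notes. The gene annotation and the strand setting are not given in the sources used here. Symbols Pgm1 and Pgm2 were exchanged between gene releases, so those 2 genes may be swapped between the tables.

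Embryo counts were tested with edgeR 4.0.16 (quasi-likelihood, TMM scaling, filterByExpr) in R 4.3.3, over 13316 genes. Tumour values were tested with limma 3.58.1 on log2(CPM + 1), over the 12829 genes that averaged 1 CPM or more. Whole reads could be recovered for 100% of the tumour values within 0.1 read and were used for edgeR and DESeq2 1.42.0 as alternatives. Counts behind the members' values ran from 95 to 21193 in livers and from 16 to 20987 in tumours; a count of 3, the limit that a count of 0 allows, was at most 0.392 CPM in livers and 1.01 CPM in tumours. That limit covers counting error only. P-values were adjusted over all genes tested by Benjamini-Hochberg. Gene positions and merged exon lengths came from GENCODE M21. The programs were tested on simulated data.

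The text names the 9 members, Prkaca, each other pathway gene past the threshold, or the 3 with the smallest p, and the 3 genes nearest in pattern to Gys2 and Pygl among those of at least 10 CPM. Ppp1r3g, Ppp1r3d and Ppp1r3f are named outside this rule, chosen after their values were seen. The members and lists were chosen with earlier results of these data known. Results for some genes of the pathway list are not reported here, and its counts leave them out.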

Additional observations from a re-analysis of the deposited data

How the results depend on the processing

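In the livers, 4 of 9 members (44.4%) passed with the ribosomal set as a covariate, where 4345 of 13316 genes (32.6%) passed. Within the higher set 3 members (33.3%) passed, beside 2589 of 12930 genes. Within the lower set 4 members (44.4%) passed, beside 2950 of 13524 genes. Leaving out single livers gave 1 to 2 members, beside 969 of 13182 to 1581 of 13466 genes. Without control 2 Phka2 joined Ppp1r3b, and without fusion 9 Ppp1r3c did (-0.94, adjusted p = 0.0368, edgeR). Of the 23 other pathway genes, 8 (34.8%) passed with the ribosomal set as a covariate and 7 (30.4%) within the lower set. With sex as a covariate 2 of them (8.7%) passed, beside 1284 of 13316 genes. The sign turned for Gys2 within the higher set (0.069), for Ugp2 with a mean of at least 10 CPM (-0.0032) and within the lower set (-0.14), and when single livers were left out for Ugp2 (-0.054 to 0.098) and Gbe1 (-0.012 to 0.27). In the tumours the sign turned for Phkg2 with edgeR (-0.027) and DESeq2 (-0.048) on recovered reads, and for Gbe1 with TMM factors (-0.12), without mitochondrial genes (-0.11), with edgeR (-0.13) and with DESeq2 (-0.16). Leaving out single tumours also turned signs, with ranges of -0.048 to 0.37 for Phkg2, -0.24 to 0.32 for Gbe1, -0.20 to 0.52 for Ppp1r3c, -0.29 to 0.20 for Ugp2 and -0.25 to 0.085 for Gyg. All genes past the threshold were 8 with DESeq2. The single livers whose removal ended a call were controls 1, 2, 3 and 5 and fusion 6, 7 and 8 for Stbd1, and controls 1, 3, 4 and 5 and fusion 6 and 7 for Prkaca. The causes were not tested.

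With the replicate block, 0 of 12829 genes and 0 members passed in the tumours (limma), and Pygl stood at 0.76 with an adjusted p of 0.999. Tumours of the same number did not deviate together (correlations -0.32 to 0.00, and none correlated best with its own number). The labels do not say what a number marks. With so few tumours this check cannot decide whether the numbers pair the samples. In the livers no paired analysis was possible because control and fusion libraries share no number. Depth limits Phkg2 in vehicle 5, where the value rests on 16 reads.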
